A study of Mus musculus with 6 samples.

Results

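The genes described here are named for lying on the strand opposite another gene, with symbols such as Zfhx2os, the "opposite strand" gene of Zfhx2. They were taken from the count tables as every symbol of 6 or more characters that ends in os, or in os and 1 digit, which gave 152 of 24411 symbols. Of these, 138 are non-coding opposite-strand genes and 10 are opposite-strand genes annotated as protein coding, 148 in all. The other 4 match only by their letters: Nanos1, Nanos2 and Nanos3 encode RNA-binding proteins, and Minos1 encodes a subunit of the complex that shapes the inner mitochondrial membrane. The 148 opposite-strand genes have 141 distinct sense partners, the gene whose name they carry or, failing that in the table, the gene facing them in the annotation.

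The data were bulk RNA sequencing of cerebellum at postnatal day 18 (P18), from KO mice, which lack the remote enhancer of Atoh7 (a proneural gene best known for its part in making retinal ganglion cells), and from WT mice, with 3 libraries of each genotype. Strain and sex are not given in the labels. Reads of Xist, which coats the silenced X in female cells, numbered 31134 in WT replicate 1 and 0 to 10 in each other library, so WT replicate 1 differs from the rest in this mark of sex. The labels describe the replicates as independent without saying whether each is 1 animal. The tissue entry of every sample reads retina, while the design text and the protocol read cerebellum.

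Libraries held 46160747 to 51947647 reads, of which 16340132 to 34438262 were assigned to genes. The 13 cerebellar markers summed to 3950 to 4870 CPM (reads scaled to a library of 1000000 gene reads, with library sizes corrected by TMM) in KO libraries and 3900 to 4800 CPM in WT libraries, and 9 of the 10 retinal markers were under 0.5 CPM. WT replicate 3 stood apart: Rn45s, the ribosomal RNA precursor, took 63.2% of its gene reads, against at most 3.04% in any other library, and left 6015125 reads on other genes. Reads outside annotated exons made up 17.1% to 17.6% of KO libraries and 32.0% to 38.5% of WT libraries. Markers of meninges summed to 164 to 175 CPM in KO libraries and 239 to 371 CPM in WT libraries, with all 5 lower in KO. Markers of oligodendrocytes summed to 26600 to 28800 CPM in KO libraries and 20900 to 23800 CPM in WT libraries, with all 4 higher in every KO library though none passed the test. The part of these differences in the results on antisense genes was not tested. Some fits below add a covariate for reads outside genes, which sets them against gene reads other than Rn45s (log2 scale). It was −0.70, −0.71 and 1.56 in WT replicates 1 to 3 and −1.95 to −1.89 in KO libraries. WT replicate 3 thus stood apart in it, and every WT library was above every KO library. A call kept or lost with it therefore cannot be assigned to reads outside genes apart from genotype or the Rn45s load.

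Antisense transcripts are RNAs read from the strand opposite another gene. Some arise from the shared promoter region of a divergent gene pair, others start inside or beyond the partner and run across its exons or introns. Well studied examples act on the chromatin of their neighbours, on the stability or translation of the partner's messenger RNA, or as hosts of microRNAs, and for most of them no function is known. Many are kept in the nucleus and are present at far lower levels than messenger RNAs.

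Sequences are given for the 4 antisense genes that fell in KO cerebellum, described further on, and for Cep83os, an abundant one of a divergent pair whose partner fell. For Ino80dos, Zfp85os, Man2c1os and Cep83os they are promoter windows from RefSeq (GRCm38.p6), 250 bases before to 50 after the start, on the strand of the antisense gene. Capitals mark GGGCGG (the core of the GC box), CCAAT and TATAAA on either strand, so that CCGCCC and ATTGG are the reverse forms. For Zfhx2os it is the first exon of a transcript of 472 bases in the GENCODE annotation (release M21, GRCm38), chr14:55053869-55053994, plus strand. Motifs were not marked in it, so the CCAAT that it contains is in small letters. GENCODE also lists a Zfhx2os transcript of 4375 bases, whose first exon starts at base 55053947. The windows are chr1:63114221-63114520 (plus strand) for Ino80dos, chr13:67729012-67729311 (plus) for Zfp85os, chr9:57131241-57131540 (minus) for Man2c1os and chr10:94688564-94688863 (minus) for Cep83os. The Ino80dos window lies inside the GENCODE span of that gene (chr1:63113078-63158290), so RefSeq and GENCODE place its start at different bases.
Zfhx2os: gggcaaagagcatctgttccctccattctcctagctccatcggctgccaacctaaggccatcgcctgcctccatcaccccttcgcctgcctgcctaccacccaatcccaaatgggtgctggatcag
Ino80dos: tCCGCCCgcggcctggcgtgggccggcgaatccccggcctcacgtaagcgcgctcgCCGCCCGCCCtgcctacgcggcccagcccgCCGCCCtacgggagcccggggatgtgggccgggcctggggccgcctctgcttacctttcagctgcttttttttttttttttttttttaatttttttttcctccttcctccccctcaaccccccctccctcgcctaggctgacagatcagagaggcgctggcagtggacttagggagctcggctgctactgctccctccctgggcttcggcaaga
Zfp85os: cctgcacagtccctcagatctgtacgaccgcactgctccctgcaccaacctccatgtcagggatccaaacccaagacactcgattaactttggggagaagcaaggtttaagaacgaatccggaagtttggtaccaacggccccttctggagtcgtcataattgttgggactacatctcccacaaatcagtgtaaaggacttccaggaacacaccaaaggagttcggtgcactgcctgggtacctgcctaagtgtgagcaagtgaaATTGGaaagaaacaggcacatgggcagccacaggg
Man2c1os: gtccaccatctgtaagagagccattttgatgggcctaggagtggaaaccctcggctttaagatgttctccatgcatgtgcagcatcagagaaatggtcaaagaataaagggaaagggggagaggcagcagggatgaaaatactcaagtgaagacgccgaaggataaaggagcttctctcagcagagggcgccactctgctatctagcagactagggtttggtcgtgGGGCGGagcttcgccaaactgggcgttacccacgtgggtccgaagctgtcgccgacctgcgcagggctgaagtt
Cep83os: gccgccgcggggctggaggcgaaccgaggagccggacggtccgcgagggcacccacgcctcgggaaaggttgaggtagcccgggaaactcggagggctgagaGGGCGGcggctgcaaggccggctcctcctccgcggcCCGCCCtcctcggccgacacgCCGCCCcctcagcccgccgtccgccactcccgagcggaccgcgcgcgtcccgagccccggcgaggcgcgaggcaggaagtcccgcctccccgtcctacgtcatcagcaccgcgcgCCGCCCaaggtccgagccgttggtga

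The windows differ in their content of CpG, the dinucleotide that is frequent in promoters of broadly used genes. Cep83os had 46 CpG and 4 matches to GGGCGG, Ino80dos had 25 CpG and 4 matches, and Man2c1os had 13 CpG and 1 match. Zfp85os had 8 CpG, no GGGCGG and 1 CCAAT. No TATAAA was found in any of the 4 windows. RefSeq windows were found for 121 of the 152 genes, 1 window a gene, of which 3 are genes that match only by their letters. GGGCGG was present in 65.9% of the windows of the 41 opposite-strand genes with enough reads to be tested, in 14.3% of the windows of the 77 that were not, and in 35.7% of all 32841 windows of the table. CCAAT was present in 43.9%, 35.1% and 37.4% of the same sets, in that order, and TATAAA in 9.76%, 9.09% and 13.6%. The median number of CpG was 20.0 in the windows of tested genes, 5 in those of untested genes and 7 in all windows. The windows of the whole table were taken whether or not the gene was tested, and a share for all tested genes is not given. Where the starts of a pair are close, the window can also hold the partner's start, as it does for Cep83os and Cep83. A match is a description of the letters in the window only.

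Antisense genes were sparsely read in P18 cerebellum. Of the 152 genes, 28 had no read in any library, where 3 reads would correspond to 0.0723 to 0.465 CPM, and 70 had 1 to 59 reads over all 6 libraries. A mean of at least 1 CPM was reached by 31 genes and of at least 10 CPM by 11, Minos1 and Nanos1 among them. The 12 most abundant, again with Minos1 and Nanos1, held 77.5% of the reads of all 152. A filter on low counts left 54 genes for testing, 50 of them opposite-strand, and 98 were not tested. Intervals and floors of this kind cover counting error only.

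Arrangement along the chromosome went with level. Positions of both genes were known for all but 3 opposite-strand genes. In 24 divergent pairs, which start back to back with no overlap, the antisense gene had a median of 0.438 CPM per kb of exon and 14 of 24 were tested. In 45 pairs whose starts overlap, the median was 0.143 CPM per kb and 24 were tested. In 47 pairs with the antisense gene wholly inside its partner, the median was 0.00685 CPM per kb, 16 had no read and 2 were tested (Zeb2os and Rab26os). The 15 pairs with overlapping ends had a median of 0.0181 CPM per kb, the 8 convergent pairs without overlap 0.149, and the 6 that span the partner 0.0319. The partners of the antisense genes lying inside them had a median of 42.4 CPM, against 20.5 CPM for partners in divergent pairs, so the sparsest antisense genes did not lie in the sparsest partners.

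The 12 most abundant genes by CPM were Chd3os, Minos1, Nanos1, Brip1os, Fam120aos, Cep83os, Wdr83os, Cebpzos, Lhx1os, Slc7a6os, Zfhx2os and Rab10os. Of these, Chd3os, Wdr83os, Cebpzos and Slc7a6os are classed as protein coding, and Minos1 and Nanos1 match only by their letters. Per length, Chd3os led with 27 CPM per kb, ahead of Lhx1os with 16.2 CPM per kb and Minos1 with 14.0 CPM per kb. Chd3os, counted here as protein coding, is typed as such by GENCODE but as a long non-coding RNA by RefSeq. Chd3os is listed today as the ring finger gene Rnf227, and converges on the chromatin remodeller gene Chd3. It had 54.6, 66.3 and 57.6 CPM in KO replicates 1 to 3, against 51.4, 46.4 and 60 CPM in WT replicates 1 to 3, groups that overlap. Lhx1os diverges from Lhx1, a LIM homeobox factor of Purkinje cells. It had 12.3, 9.82 and 10.6 CPM in KO libraries, against 7.81, 10.7 and 16.4 CPM in WT libraries. The WT libraries enclose the KO libraries for Lhx1os, and 1 member of the 12, Zfhx2os, passed the test between genotypes.

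In KO against WT cerebellum, 4 antisense genes fell and none rose. Zfhx2os fell 3.90-fold, Man2c1os 2.54-fold, Zfp85os 1.62-fold and Ino80dos 1.41-fold. Adjusted p-values come from the quasi-likelihood test of edgeR, adjusted after Benjamini and Hochberg over 15519 genes with a threshold of 0.05. These 4 were 7.41% of the 54 tested genes and 8.0% of the 50 opposite-strand ones. Of all tested genes, 10.2% fell and 6.43% rose. An unadjusted p under 0.05 was reached by 7 of the 54 (13.0%), all lower in KO, against 32.5% of all tested genes, and DESeq2 called 2 lower and none higher. All 4 genes called are among the 43 tested non-coding ones, and of the 7 tested protein-coding ones none passed. The share of genes that fell was near that of all genes.

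Small differences leaned to the lower side in KO. The median log2 fold change (KO minus WT) over the 54 tested genes was −0.13, against −0.01 over all 15519, with 38 below 0 and 16 above 0. All 3 KO libraries lay below all 3 WT libraries for 14 of the 54 (25.9%, against 20.5% of all tested genes) and above them for 1, Zbtb11os1 (1.85%, against 18.9% of all tested genes). With the covariate for reads outside genes, the median was 0.04. The summed level of the 148 opposite-strand genes was 238, 247 and 241 CPM in KO libraries, against 243, 248 and 286 CPM in WT libraries, and the groups overlap (242 ± 4.55 CPM in KO and 259 ± 23.2 CPM in WT, SD, n = 3 each; two-sided exact permutation p = 0.2, where 3 against 3 cannot go below 0.1).

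Zfhx2os (chr14:55053869-55075873, plus strand, annotated as antisense) overlaps the 3' end of Zfhx2, a zinc finger homeobox gene, with 3255 bases shared between exons of the 2 genes. Its reads numbered 195, 154 and 184 in KO replicates 1 to 3, against 513, 592 and 129 in WT replicates 1 to 3. In CPM these are 5.06, 3.89 and 4.44 in KO, against 14.9, 18.3 and 20.0 in WT. Every WT library was above every KO library, the shallow WT replicate 3 included. In bulk tissue, fewer cells with a transcript and less of it per cell cannot be told apart. The mean was 4.46 ± 0.586 CPM in KO and 17.7 ± 2.60 CPM in WT (SD, n = 3 each). The log2 fold change was −1.96 (SE 0.14; edgeR adjusted p = 2.55e-05). Zfhx2 did not pass the test. It had 30.7, 28.3 and 25.1 CPM in KO and 30.1, 26.9 and 30.7 CPM in WT, with a log2 difference of −0.05 (SE 0.09; edgeR adjusted p = 0.733). Counted without regard to strand, which drops reads where exons of the pair overlap, Zfhx2 was called lower too (log2 fold change −0.67, edgeR adjusted p = 0.00111), the 1 of 13 settings that called it.

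The ratio of the 2 strands at Zfhx2 was lower in every KO library. Zfhx2os reads were 16.5%, 13.7% and 17.7% of Zfhx2 reads in KO libraries, against 49.5%, 68.0% and 65.2% in WT libraries, a ratio taken within a library. No KO library reached the lowest WT library (two-sided exact permutation p = 0.1, the smallest possible; 0.343 after Benjamini-Hochberg adjustment over the pairs). With the covariate for reads outside genes, Zfhx2os was still lower by edgeR, at a log2 fold change of −1.75 (adjusted p = 0.000252). GENCODE places a further gene model on the same strand there, Gm20687, which the count tables do not list, so reads of the 2 models cannot be told apart.

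Man2c1os (chr9:57099950-57131290, minus strand) starts inside the first part of Man2c1, which encodes a cytosolic alpha-mannosidase, and runs away from it over the 3' region of Sin3a. It was read far less often, with 16, 18 and 26 reads in KO libraries, against 43, 41 and 9 in WT libraries. In CPM these are 0.415, 0.454 and 0.627 in KO, against 1.25, 1.27 and 1.39 in WT, with no overlap. The log2 fold change was −1.34 (SE 0.25; edgeR adjusted p = 0.0067). It was lost with the covariate for reads outside genes (−1.24, adjusted p = 0.0958) and without regard to strand (−0.94, adjusted p = 0.0591). Man2c1 itself fell by less, with 26.5 ± 0.511 CPM in KO and 31.4 ± 2.02 CPM in WT (SD, n = 3 each; log2 fold change −0.25, edgeR adjusted p = 0.046), a call that 10 of 13 alternative settings lost. Man2c1os reads were 1.88% ± 0.445 of Man2c1 reads in KO and 4.17% ± 0.423 in WT.

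Zfp85os (chr13:67729262-67756838, plus strand) spans the whole of Zfp85, a KRAB zinc finger gene. It had 1.35, 1.56 and 1.23 CPM in KO libraries, against 2.27, 2.23 and 2.17 CPM in WT libraries. Its reads numbered 52, 62 and 51 in KO libraries, against 78, 72 and 14 in WT libraries. The groups were apart (1.38 ± 0.170 CPM in KO and 2.22 ± 0.0481 CPM in WT, SD, n = 3 each). With 14 reads in WT replicate 3, the small SD in WT does not show a precisely known level. The log2 fold change was −0.69 (SE 0.18; edgeR adjusted p = 0.027), beside −0.04 for Zfp85 (adjusted p = 0.838). Zfp85os reads were 24.6%, 27.1% and 19.9% of Zfp85 reads in KO, against 39.0%, 36.0% and 36.8% in WT. The adjusted p was 0.0733, 0.0888, 0.0835 and 0.102 without WT replicate 1, WT replicate 2, KO replicate 1 and KO replicate 3, 0.07 by DESeq2, 0.176 with the covariate for reads outside genes and 0.0962 with the replicate block. The log2 fold change stayed between −0.79 and −0.61 in all 13 alternative settings.

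Ino80dos (chr1:63113078-63158290, plus strand) overlaps the start of Ino80d, which encodes a subunit of the INO80 chromatin remodelling complex, and here both genes fell. Ino80dos had 3.14, 3.58 and 3.40 CPM in KO libraries, against 4.65, 5.07 and 4.34 CPM in WT libraries, without overlap. The log2 fold change was −0.50 (SE 0.13; edgeR adjusted p = 0.0302). Ino80d had 58.0, 52.0 and 60.2 CPM in KO, against 63.7, 72.6 and 78.1 CPM in WT (log2 fold change −0.32, edgeR adjusted p = 0.0316). Their ratio overlapped between groups, at 5.98% ± 0.801 in KO and 6.62% ± 0.931 in WT. The Ino80dos call was lost in 8 of 13 alternative settings, among them leaving out WT replicate 1 (adjusted p = 0.0594), WT replicate 2 (0.13), KO replicate 1 (0.108), KO replicate 2 (0.0663) or KO replicate 3 (0.098).

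**Figure D1:**
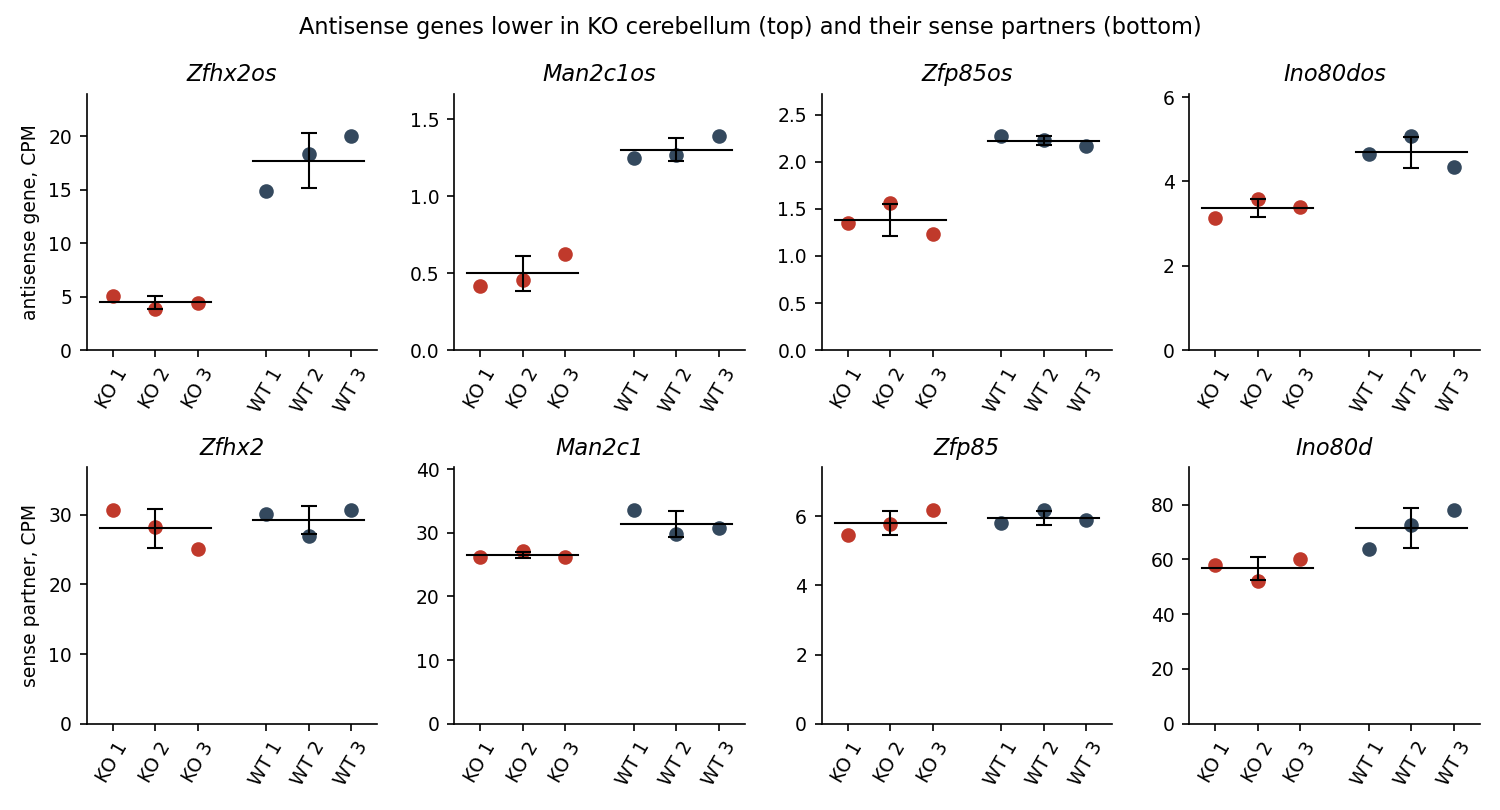
Level in CPM (y axes, each from 0) by library (x axes) for the 4 antisense genes that fell in KO cerebellum (top) and their sense partners (bottom), with KO in red and WT in dark blue; lines are group means and bars are SD (n = 3). For Zfhx2os the KO libraries lie between 3.89 and 5.06 CPM and the WT libraries between 14.9 and 20.0 CPM, while those of Zfhx2 overlap.

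Antisense genes and their partners were then set side by side over all pairs. Both genes were tested in 49 pairs, of which 27 had fold changes of the same sign and 21 of opposite sign. Both fell in 2 pairs (Ino80dos and Man2c1os), the antisense gene alone in 2 (Zfhx2os and Zfp85os), and in 38 neither passed. In 7 pairs the partner alone passed, 2 higher and 5 lower. No pair had both genes called in opposite directions. The ratio of antisense to sense reads was lower in every KO library than in every WT library for 9 pairs, higher for 5 and overlapping for 36 of the 50 tested antisense genes with a partner. With 3 libraries against 3 the exact permutation p cannot go below 0.1, so no ratio could have passed. The smallest p after adjustment over the pairs was 0.343 (exact permutation), and a like share over all genes was not computed.

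Cep83os is among the 5 with a higher ratio in every KO library. It shares a divergent promoter region with Cep83, a gene of the centriole's distal appendages, and the 2 annotated starts are 78 bases apart. Cep83os had 18.4, 19.6 and 16.4 CPM in KO libraries, against 16.1, 17.0 and 14.9 CPM in WT libraries. The groups overlap (log2 fold change 0.16, SE 0.09; edgeR adjusted p = 0.254). Cep83 fell, with 18.8, 17.6 and 18.9 CPM in KO, against 23.1, 22.1 and 28.2 CPM in WT (log2 fold change −0.38, SE 0.10; edgeR adjusted p = 0.0247). Cep83os reads were 98.1%, 111% and 86.6% of Cep83 reads in KO, against 69.8%, 76.6% and 52.7% in WT, without overlap. With the covariate for reads outside genes the Cep83 call was lost (log2 fold change −0.12, adjusted p = 0.55).

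**Figure D2:**
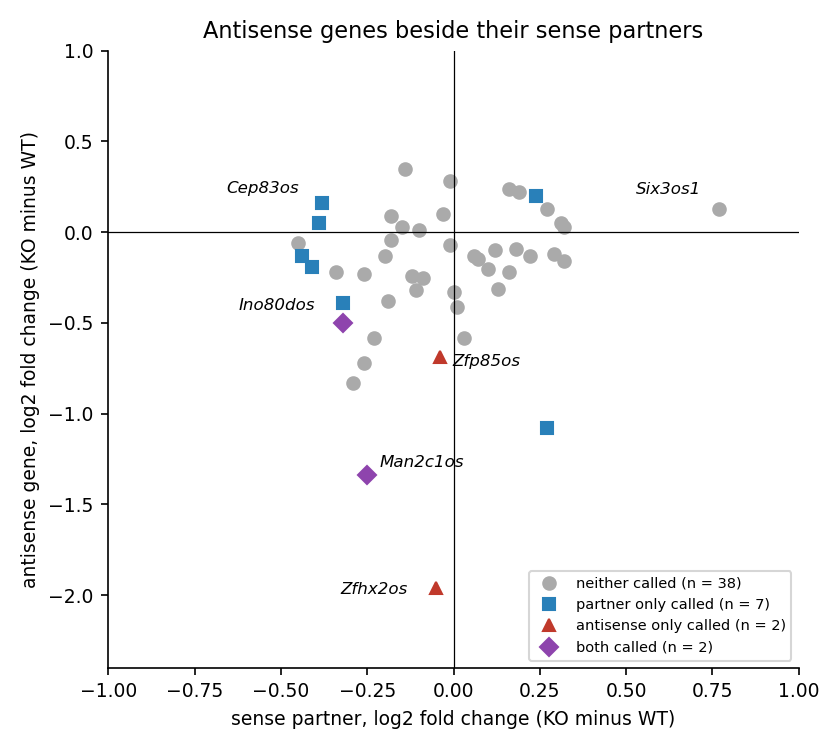
Log2 fold change (KO minus WT) of the antisense gene (y axis) against that of its sense partner (x axis) for the 49 pairs with both genes tested; symbols give which gene passed the adjusted threshold of 0.05. Zfhx2os is the lowest point, at −1.96 beside −0.05 for Zfhx2, and Cep83os lies at 0.16 beside −0.38 for Cep83.

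The other abundant antisense genes did not pass the test beside partners with small differences. Brip1os had 21.9 ± 0.478 CPM in KO and 21.2 ± 1.76 CPM in WT (SD, n = 3 each; log2 fold change 0.05, edgeR adjusted p = 0.696). Its named partner Brip1, a DNA repair helicase gene, was nearly silent at 0.589 ± 0.192 CPM in KO and 0.589 ± 0.295 CPM in WT. Brip1os also faces Ints2, a subunit gene of the Integrator complex, which fell (16.3 ± 0.991 CPM in KO and 23.8 ± 0.879 CPM in WT; log2 fold change −0.55, edgeR adjusted p = 0.0017), and the Mediator gene Med13, which fell by 0.21 on the log2 scale (edgeR adjusted p = 0.0438). Chd3os had a log2 fold change of 0.20 (adjusted p = 0.208) beside 0.24 for Chd3, which rose (edgeR adjusted p = 0.0276). Without WT replicate 3, Chd3os was called higher too (0.29, adjusted p = 0.0381). Lhx1os had 0.03 beside 0.32 for Lhx1, Rab10os −0.09 beside 0.18 for Rab10, a GTPase gene of membrane traffic, and Fam120aos −0.07 beside −0.01 for Fam120a, and none of these 6 genes passed. Slc7a6os, Cebpzos and Wdr83os, classed as protein coding, had −0.13, 0.09 and 0.01. Their partners Slc7a6, Cebpz and Wdr83 had −0.20, −0.18 and −0.10, and none of these genes passed either.

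A few other antisense genes at known loci, picked after their values were seen, did not pass. Igf2os, opposite the imprinted growth factor gene Igf2, had 0.438 ± 0.154 CPM in KO and 0.852 ± 0.205 CPM in WT, with every KO library below every WT library (SD, n = 3 each; log2 fold change −0.83, edgeR adjusted p = 0.114). Dio3os, at the imprinted deiodinase locus, had a log2 fold change of −0.13 (edgeR adjusted p = 0.865). Nkx2-2os, opposite a homeobox gene of the ventral neural tube and of oligodendrocytes, had 5.15 ± 0.198 CPM in KO and 5.34 ± 0.352 CPM in WT. Pax6os1, opposite the granule cell factor gene Pax6, had 0.615 ± 0.217 CPM in KO and 0.787 ± 0.433 CPM in WT, and its log2 fold change was −0.06 (adjusted p = 0.943).

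Six3os1 and Emx2os, opposite 2 homeobox genes of the anterior brain, split the WT libraries; they were picked after their values were seen. Six3os1 had 33, 29 and 27 reads in KO libraries, against 52, 0 and 0 in WT libraries. Six3 had a like split of the WT libraries, with 93, 121 and 74 reads in KO, against 107, 0 and 2 in WT. The order of the KO libraries differed between the 2 genes. Emx2os had 4, 11 and 2 reads in KO and 15, 0 and 0 in WT, and was not tested. WT replicate 1, also the library with Xist reads, thus carried both antisense genes, and WT replicates 2 and 3 carried no read of either, with a floor (3 reads) of 0.0928 and 0.465 CPM. Over all libraries Six3os1 did not pass (edgeR adjusted p = 0.948), while without WT replicate 1 it was called higher in KO. Of 7 forebrain markers, 6 were under 0.5 CPM, and the 7 summed to 3.99 to 7.27 CPM in KO libraries and 5.52 to 6.44 CPM in WT libraries. Nearly all of each sum was Neurod6, with 3.92 to 7.07 CPM in KO libraries and 5.34 to 6.2 CPM in WT libraries.

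**Figure D3:**
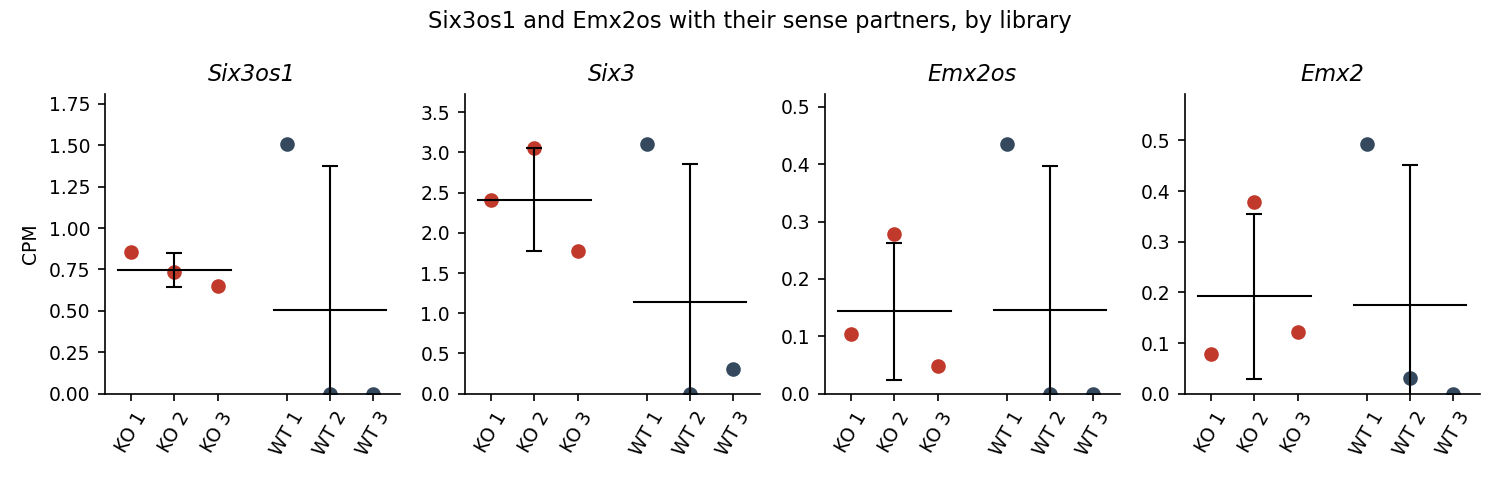
Level in CPM (y axes, each from 0) of Six3os1, Six3, Emx2os and Emx2 by library (x axes), KO in red and WT in dark blue, with group means and SD (n = 3). WT replicate 1 has the highest value of all 6 libraries in each panel, and WT replicates 2 and 3 have 0 reads of Six3os1 and Emx2os.

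Partners of the genes too sparse to test were measured as well. Of the 141 partners, 121 were tested, 15 rose (12.4%, against 6.43% of all tested genes) and 11 fell (9.09%, against 10.2%). Among the 72 tested partners of untested antisense genes, 13 rose (18.1%) and 4 fell (5.56%). Fam219a had 116 ± 6.12 CPM in KO and 85.3 ± 8.47 CPM in WT (SD, n = 3 each), and Trpc5, a cation channel gene, had 21.3 ± 0.767 CPM in KO and 15.8 ± 0.929 CPM in WT. Far1, which encodes a fatty acyl-CoA reductase, had 91.3 ± 1.5 CPM in KO and 125 ± 3.15 CPM in WT. The 3 were chosen after their values were seen, among partners with small adjusted p (0.00567, 0.00739 and 0.000891 by edgeR). Nphs1, the nephrin gene, rose (log2 fold change 1.64, edgeR adjusted p = 0.0105), while Nphs1os had 8, 6 and 2 reads in KO and 5, 3 and 1 in WT.

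How well the libraries separate the strands bears on each of these levels. Over 6141 genes with at least 1000 reads and no annotated gene opposite, the other strand held a median of 0.295% of the counted strand's reads, with quartiles of 0.171% and 0.594% and a 95th percentile of 2.75%. Of the 148 opposite-strand genes, 82 had more reads on the partner's strand than on their own. In sum they had 47186 reads on their own strand and 138329 on the other. Of the 120 with a read on their own strand, 30 had no more than the 95th percentile of that share would give, and none of those 30 was among the 50 tested.

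Several antisense genes of highly expressed neuronal genes are in that class. Grin1os, opposite the obligatory NMDA receptor subunit gene Grin1, had 59 reads on its own strand and 23400 on the other. Peg3os, opposite the imprinted gene Peg3, had 15 and 14877, and Uchl1os, whose transcript is known in mouse neurons to raise translation of the deubiquitinase Uchl1, had 42 and 8970. These reads on the antisense strand were at or under the 95th percentile of what abundant genes with no opposite gene show, so their levels cannot be told apart from the strand error of the libraries. By contrast, Zfhx2os had 1767 reads on its own strand and 1615 on the other, and Cep83os had 3368 and 6.

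**Figure D4:**
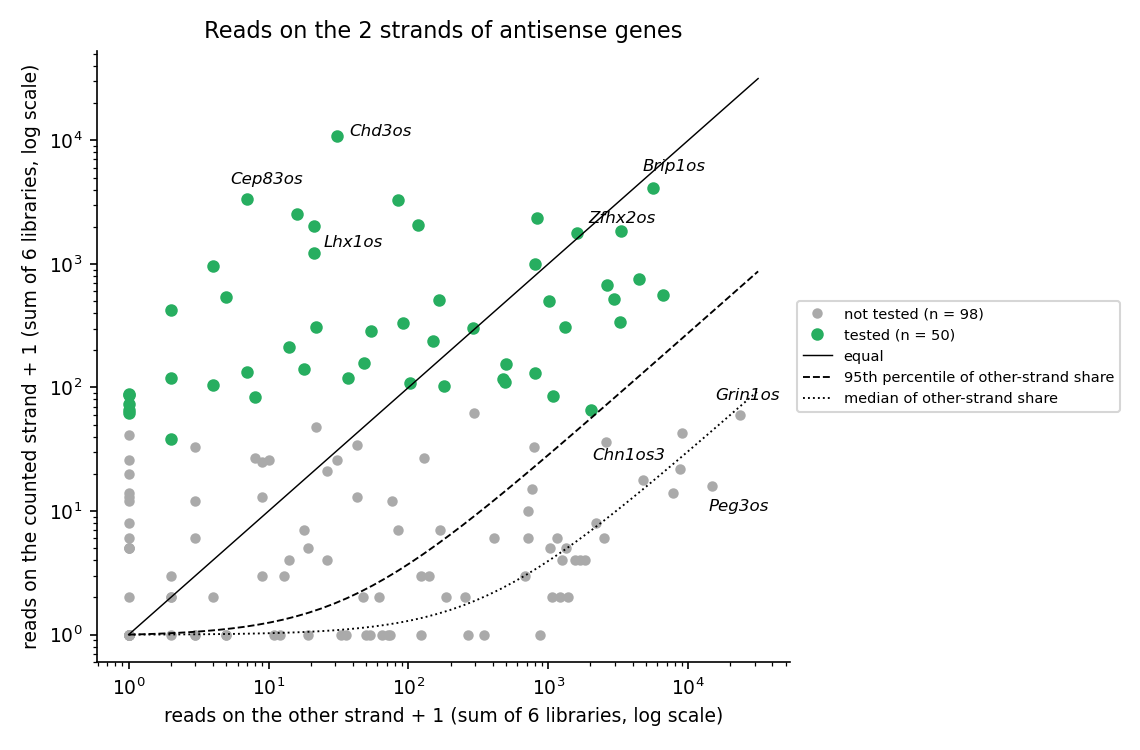
Reads on the counted (antisense) strand (y axis) against reads on the other strand (x axis), each summed over 6 libraries plus 1 and on log scales, for 148 opposite-strand genes, 50 tested and 98 not; lines mark equality and the median (0.295%) and 95th percentile (2.75%) of the other-strand share in genes with no opposite gene. Grin1os and Peg3os lie at or under the dotted line and all 50 tested genes above the dashed one.

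Ignoring strand changed the picture of these genes. With reads counted on either strand, 76 opposite-strand genes were tested, 24 fell (31.6%, against 11.8% of all genes in that count) and 1 rose, Fam219aos (against 7.93%). Of the 24, 3 had also fallen with strand, 19 had been too sparse to test with strand, 22 had more reads on the other strand, and 15 lie inside their partner. Dnm3os, which lies in an intron of the dynamin gene Dnm3 and is known as a host of microRNAs, had the smallest adjusted p of them, at a log2 fold change of −2.45 (edgeR adjusted p = 1.71e-05). It had 75, 49 and 65 reads without strand in KO libraries, against 307, 258 and 64 in WT libraries. On its own strand it had 3, 9 and 4 reads in KO and 5, 6 and 5 in WT, so nearly all of the difference lay on the strand of Dnm3.

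The same held for the sum over antisense genes inside introns, Dnm3os included. For 26 of them that lie inside the partner and share no exon with it, reads on the partner's strand summed to 7.05, 5.55 and 6.97 CPM in KO libraries, against 25.6, 24.3 and 26.7 CPM in WT libraries. The groups were far apart, with 6.52 ± 0.843 CPM in KO and 25.5 ± 1.2 CPM in WT (SD, n = 3 each), 3.91-fold lower in KO (two-sided exact permutation p = 0.1, the smallest possible). Dnm3os, Ppp2r2cos and Nrg3os held much of that gap. Their means were 1.45, 2.39 and 0.576 CPM in KO, against 8.58, 5.8 and 2.57 CPM in WT. On the antisense strand the sums were 1.35, 1.79 and 1.28 CPM in KO, against 1.77, 2.13 and 3.56 CPM in WT, which overlap (p = 0.2, exact). Over the 77 antisense genes whose exons do overlap the partner's, reads on the partner's strand were 594 ± 15.1 CPM in KO and 570 ± 17.9 CPM in WT. Reads on their own strand were 78.9 ± 2.71 CPM in KO and 97.8 ± 4.02 CPM in WT, with no overlap (exact p = 0.1). Zfhx2os holds most of that gap: over the other 76 genes, an exclusion made after the values were seen, they were 74.4 ± 2.17 CPM in KO and 80.0 ± 2.09 CPM in WT (exact p = 0.1).

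**Figure D5:**
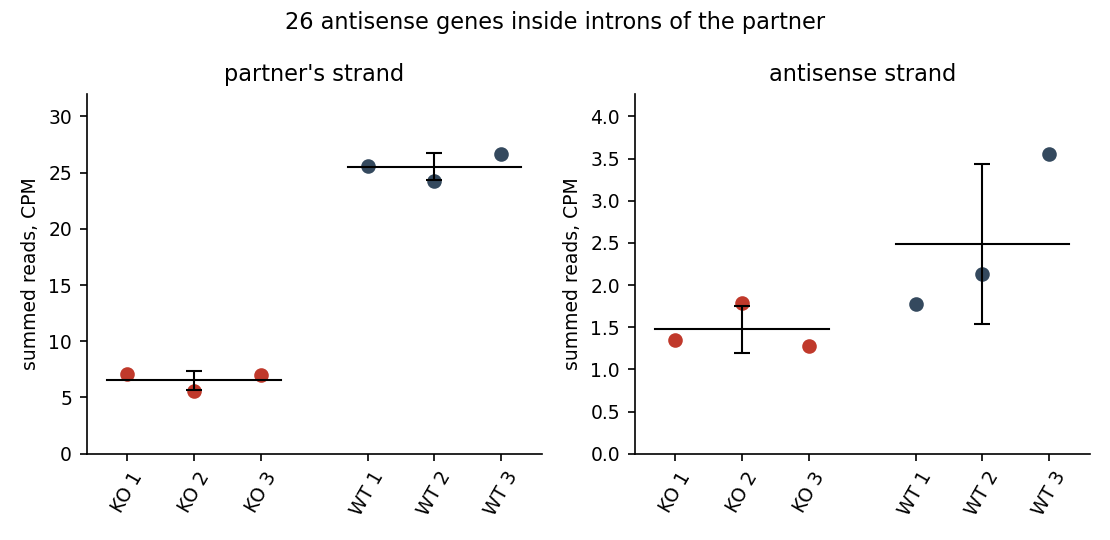
Summed reads in CPM (y axes, from 0) by library (x axes) over 26 antisense genes that lie inside their partner without sharing an exon, on the partner's strand (left) and on the antisense strand (right), KO in red and WT in dark blue, with group means and SD (n = 3). The KO libraries lie between 5.55 and 7.05 CPM and the WT libraries between 24.3 and 26.7 CPM on the partner's strand, while the groups overlap on the antisense strand.

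Other long non-coding RNAs were counted in the same fit, where 10.2% of all tested genes fell and 6.43% rose. Of 519 tested long non-coding genes of GENCODE outside the set, 84 fell (16.2%) and 8 rose (1.54%), with a median log2 fold change of −0.16. Of 132 tested genes that GENCODE types as antisense, outside the set, 7 fell (5.30%, below the share of all genes) and none rose, with a median of −0.11. A list of other antisense RNAs known by their own names had 9 tested genes, of which 4 fell and none rose (log2 fold changes of −2.06 for Kcnq1ot1, −1.80 for Ftx, −1.39 for Nespas and −0.40 for Snhg14). A list of nuclear long non-coding RNAs had 13 tested genes, of which 9 fell and 1 rose, with a summed level of 4680 to 5250 CPM in KO libraries and 13700 to 17100 CPM in WT libraries. Most of that sum is Malat1, with 3300 to 4060 CPM in KO libraries and 9910 to 14200 CPM in WT libraries. Without it, the sums were 1190 to 1370 CPM in KO and 2400 to 3760 CPM in WT. Xist, which was not tested, is in these sums too, with 904 CPM in WT replicate 1 and at most 0.309 CPM elsewhere. Both WT ranges therefore include that difference in 1 library. Both lists were drawn up with results of these libraries known, so their direction is not independent evidence.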

How the data were processed

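Bulk RNA sequencing of 6 libraries was used, 3 KO and 3 WT, grouped by the sample titles. The authors deposited raw counts of reads per gene, with a column without regard to strand and 1 for each strand. The submitters' processing notes name Trimmomatic, STAR and the mm10 build, and the count tables have STAR's layout. Tool versions, the annotation and the kit's strand setting were not given in the sources used. STAR counts reads in exons only, so intron reads of the counted strand count as outside genes, and reads over 2 genes are dropped, which without strand removes reads where exons of a pair overlap.

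The heavier strand column was used as the counted strand. The 4 lines of unassigned reads did not enter library sizes. Genes were filtered with filterByExpr and scaled by TMM, and KO was set against WT with edgeR 4.0.16 (quasi-likelihood, robust; R 4.3.3), adjusted by Benjamini-Hochberg over 15519 genes. The script was tested on simulated data. CPM used the scaled library sizes. Single values were compared by exact permutation over libraries. Positions came from GENCODE M21 (GRCm38) for 149 of the 152 genes and promoter windows from RefSeq (GRCm38.p6).

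Named genes were every member past the threshold, the 12 with the highest mean CPM, and their partners; others were named after their values were seen. The members and lists were chosen with earlier results of these data known. Alternatives were DESeq2 1.42.0 (size factors; Wald test), no filter, counts without strand, Rn45s left out, a covariate for reads outside genes, a replicate block and each library left out. P-values measure the spread between these libraries.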

Additional observations from a re-analysis of the deposited data

How the results depend on the processing

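The 4 antisense genes that fell became 2 by the DESeq2 test, 24 without regard to strand, 1 with the covariate for reads outside genes, 2 with the replicate block and 2 to 4 with a library left out. The count of those that rose, 0, became 1 without regard to strand and ranged from 0 to 1 with a library left out. Zfhx2os passed in 13 of 13 settings (log2 fold change −2.09 to −1.75; adjusted p 6.62e-32 to 0.00115 by edgeR or DESeq2), Man2c1os in 11, Zfp85os in 6 and Ino80dos in 5. Of the partners, the 15 that rose became 5 with the covariate, 5 with the block and 4 to 21 with a library left out, and the 11 that fell became 5, 2 and 2 to 13. Over all genes the 2585 calls became 1422 with the covariate, 1073 with the block, 3153 without strand and 1041 to 3719 with a library left out. The median log2 fold change of −0.13 was −0.33 without strand and 0.04 with the covariate, a change of sign, and the summed log2 ratio of −0.10 was −0.25 without strand. Minos1, at −0.12, turned to 0.60 with the covariate (adjusted p = 0.00444 by edgeR). The cause of these shifts was not tested. Replicate numbers did not pair the libraries: same-number correlations of deviations were −0.183, −0.140 and −0.0997. The summed level and the ratios were not computed under settings that change the test alone. WT replicate 3, with 6015125 reads outside Rn45s, sets the depth limit for sparse genes.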
